A study of Mus musculus with 4 samples.

Results

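The proteasome gene family was taken as the protein-coding genes whose symbols begin with Psma, Psmb, Psmc, Psmd, Psme, Psmf or Psmg followed by a number, which gave 50 of the 54532 genes in the table. Of these, 49 had enough counts to be tested. The data were RNA-seq counts from 4 samples of naive CD8+ T cells, taken from the spleen of C57BL/6 mice by magnetic beads. All 4 samples received antibodies to CD3 and CD28, which engage the T cell receptor complex and its costimulator, over 48 h. In 2 of the samples, called IFNα, interferon alpha was present at 2000 U/ml, and the other 2, called control, had the same stimulation without it. Whether the samples of a group came from separate animals or cultures is not stated, so the spread behind every p-value may be technical. In these bulk samples, fewer cells of a type and less RNA per cell cannot be told apart.

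The proteasome is the protease that degrades ubiquitin-tagged proteins into short peptides. Its 20S core is a barrel of alpha and beta rings, in which the beta subunits Psmb5, Psmb6 and Psmb7 hold the active sites. A 19S cap of ATPases (Psmc genes) and non-ATPase subunits (Psmd genes) unfolds the substrate and feeds it in, and the Psme genes encode alternative caps. In the immunoproteasome, which lymphocytes use, the catalytic subunits are replaced by Psmb8, Psmb9 and Psmb10, and the PA28 cap made of Psme1 and Psme2 shapes the peptides offered to MHC class I. These 5 genes are known as interferon-inducible, mainly by interferon gamma, and are called the inducible genes here. The comparison of IFNα with control thus asks whether they moved in activated CD8+ T cells and whether they did so apart from the constitutive subunits.

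Psmb8 (chr17:34197721-34201454, plus strand) and Psmb9 (chr17:34181988-34187764, minus strand) lie in the MHC region on either side of Tap1, in the GRCm38 coordinates of the deposited table. Psme1 (chr14:55578123-55581529, plus strand) and Psme2 (chr14:55587441-55591113, minus strand) are neighbours on chromosome 14, and Psmb10 (chr8:105935735-105938444, minus strand) lies apart from them. The 50 members were spread over 16 chromosomes. RefSeq promoter windows of build GRCm38.p6, from 250 bases before to 50 bases after a start, were matched by symbol for 42 members. They were searched on both strands for an ISRE-like pattern (GAAA, any 2 bases, GAAA, the kind of element through which type I interferon acts) and a GAS-like pattern (TTCNNNGAA, the kind known from interferon gamma responsive genes). The windows of 3 inducible genes are shown because Psmb8 and Psme1 hold a match, in capitals, while Psmb9 has none and shares 275 bases of its window with that of Tap1. The windows lie at chr17:34197945-34198244 on the plus strand for Psmb8, chr17:34187281-34187580 on the minus strand for Psmb9 and chr14:55578244-55578543 on the plus strand for Psme1.
Psmb8: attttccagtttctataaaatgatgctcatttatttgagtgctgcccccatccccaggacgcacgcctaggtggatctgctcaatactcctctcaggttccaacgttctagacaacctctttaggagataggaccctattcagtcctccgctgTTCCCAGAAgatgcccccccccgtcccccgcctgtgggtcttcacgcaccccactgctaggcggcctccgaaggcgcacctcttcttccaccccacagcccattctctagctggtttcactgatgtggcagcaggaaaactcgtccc
Psmb9: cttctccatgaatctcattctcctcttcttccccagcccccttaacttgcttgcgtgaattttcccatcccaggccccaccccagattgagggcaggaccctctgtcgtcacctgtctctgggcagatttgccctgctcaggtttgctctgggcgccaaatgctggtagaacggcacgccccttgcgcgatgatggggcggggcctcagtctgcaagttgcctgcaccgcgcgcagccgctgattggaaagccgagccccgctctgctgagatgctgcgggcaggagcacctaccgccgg
Psme1: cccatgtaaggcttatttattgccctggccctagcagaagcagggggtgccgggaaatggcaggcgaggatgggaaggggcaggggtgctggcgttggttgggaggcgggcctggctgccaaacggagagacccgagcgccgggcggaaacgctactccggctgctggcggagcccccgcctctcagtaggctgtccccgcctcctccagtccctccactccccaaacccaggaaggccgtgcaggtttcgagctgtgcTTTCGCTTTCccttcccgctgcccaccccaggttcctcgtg
The GAS-like match of Psmb8 began 97 bases before the start, and the ISRE-like match of Psme1 (read on the other strand) began 9 bases after it. Neither pattern was found in the windows of Psmb9, Psmb10 or Psme2. Among the other members with a window, the ISRE-like pattern was found in Psmb3, Psmd4, Psmd9 and Psmg4 and the GAS-like pattern in Psmd2 and Psmg1. Of all 27025 genes with such windows, 3.99% held the ISRE-like and 9.55% the GAS-like pattern, beside 5 and 3 of the 42 members. A match is a description of the letters and not a binding site.

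No member of the family was called between IFNα and control. Of 49 members tested, 0 were higher and 0 lower at an adjusted p under 0.05 by edgeR's quasi-likelihood test (Benjamini-Hochberg, 14417 genes), against 1.43% of all genes higher and 0.222% lower. With a log2 fold change over 1 in size as well, the counts were again 0 and 0, against 1.28% and 0.139%. The other tests also called 0 members in each direction. Of all genes, DESeq2 called 2.39% higher and 0.603% lower, limma-voom 1.48% and 0.222%, edgeR's likelihood ratio test 2.98% and 1.62% and its exact test 2.94% and 1.55%. At an unadjusted p under 0.05, 1 member was higher (Psme4) and 0 were lower, against 5.72% and 5.55% of all genes. Both IFNα samples lay above both controls in 4 members (Psmd1, Psme3, Psme4 and Psme2b), against 23.1% of all genes, and below both in 4 (Psmd5, Psmd6, Psmd10 and Psmg3), against 23.4%. In the other 41 members the groups overlapped.

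Psmb8, Psmb9, Psme1 and Psme2 were among the members with the highest counts, Psmb10 lay in the middle of the family, and none of the 5 passed the test. Levels are given as CPM, counts scaled by library total and TMM factor to a common library size, for control replicates 1 and 2 and then IFNα replicates 1 and 2. Psmb8, which replaces the chymotrypsin-like subunit Psmb5, was at 420 and 277 CPM in the controls and 353 and 399 CPM with IFNα. Its log2 fold change was 0.11 (SE 0.22, edgeR adjusted p = 0.853). Both IFNα samples thus lay between the controls.

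Psmb9, which replaces Psmb6, was at 327 and 250 CPM in the controls and 289 and 297 CPM with IFNα, with a log2 fold change of 0.02 (SE 0.17, edgeR adjusted p = 0.967). Psmb10, which replaces the trypsin-like subunit Psmb7, was at 152 and 100.4 CPM in the controls and 149 and 163 CPM with IFNα. Its log2 fold change of 0.30 (SE 0.21, edgeR adjusted p = 0.620) was the largest of the 5, and its 95% interval ran from -0.23 to 0.83. In Psmb10 it was control replicate 2 alone that lay apart from the other samples.

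Psme1, the PA28 alpha subunit, was at 538 and 357 CPM in the controls and 475 and 523 CPM with IFNα, with a log2 fold change of 0.16 (SE 0.22, edgeR adjusted p = 0.787). Psme2, the PA28 beta subunit, was at 330 and 197 CPM in the controls and 250 and 237 CPM with IFNα. Of the 5, it alone had a fitted value below 0 (log2 fold change -0.11, SE 0.25, edgeR adjusted p = 0.868). The 95% interval of the log2 fold change ran from -0.44 to 0.66 for Psmb8, from -0.39 to 0.44 for Psmb9, from -0.40 to 0.71 for Psme1 and from -0.74 to 0.51 for Psme2.

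**Figure D1:**
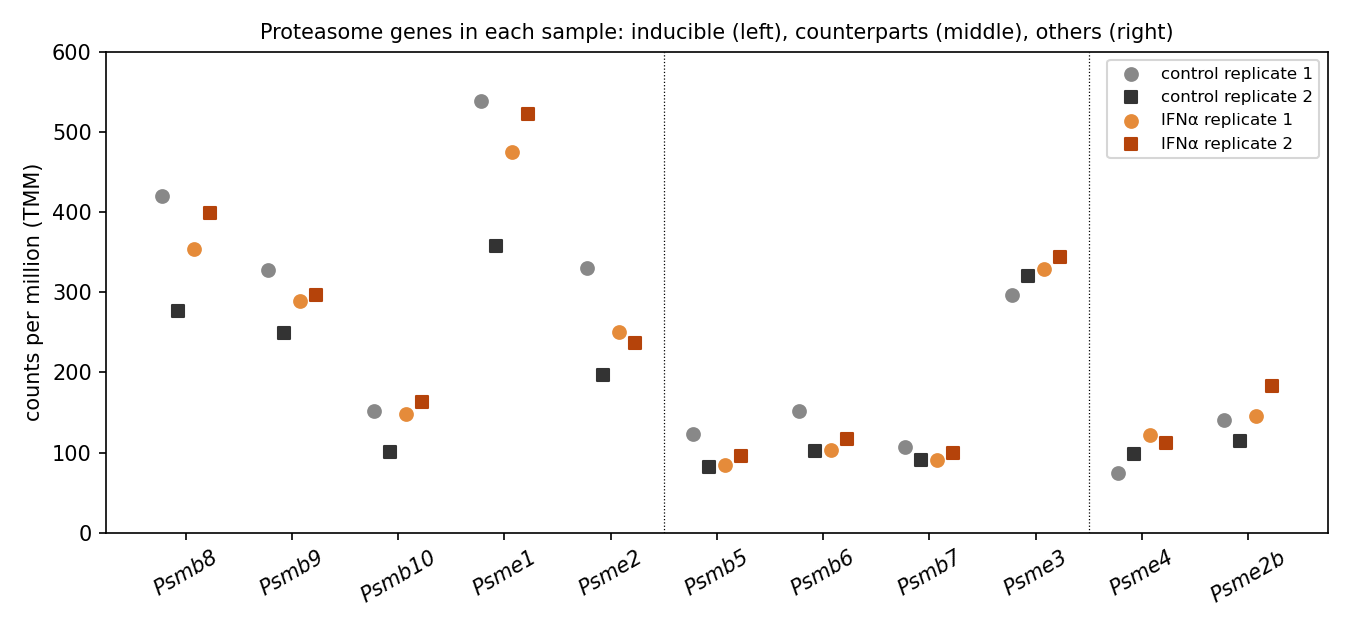
Level in CPM (vertical axis, linear from 0) of the inducible genes, their constitutive counterparts and other caps in each of the 4 samples; each point is 1 sample, in its group's colour and marked by replicate. Control replicate 1 is the highest sample for Psmb8, at 420 CPM, and control replicate 2 the lowest, at 277 CPM.

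The constitutive catalytic subunits lay slightly below 0 on the same scale. Psmb5 was at 123 and 81.8 CPM in the controls and 84.6 and 96.2 CPM with IFNα (log2 fold change -0.18, SE 0.21). Psmb6 was at 152 and 102 CPM in the controls and 104 and 117 CPM with IFNα (log2 fold change -0.20, SE 0.21). Psmb7 was at 107 and 90.3 CPM in the controls and 90.3 and 99.4 CPM with IFNα (log2 fold change -0.06, SE 0.14). In all 3 genes control replicate 1 was the highest sample and the groups overlapped.

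Whole classes of the core and cap had medians near that of all genes. The median log2 fold change was -0.07 over the 7 alpha ring genes, from -0.15 for Psma7 to 0.11 for Psma3. It was -0.13 over the 7 constitutive beta ring genes, all fitted below 0, with Psmb2 nearest to 0 at -0.01. The 6 ATPase genes of the cap base had a median of -0.15, from -0.23 for Psmc5 to 0.02 for Psmc6. The 11 non-ATPase genes had a median of -0.08, from -0.25 for Psmd8 to 0.25 for Psmd1. The 43 members called constitutive here leave out the inducible genes and Psmc3ip. They hold the assembly factors, Psmf1, Psma8 and Psme2b, a copy of Psme2, besides the constitutive subunits and other caps. Over these 43 the median was -0.11 and 33 were fitted below 0. Over the 5 inducible genes it was 0.11, with 1 below 0, and over all genes tested it was -0.01, with 51.8% below 0.

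Psmd1 and Psmd6 were the non-ATPase subunits whose groups did not overlap. Psmd1, the large scaffold subunit of the cap base, was at 147 and 156 CPM in the controls and 182 and 179 CPM with IFNα (log2 fold change 0.25, SE 0.12, edgeR adjusted p = 0.511). Psmd6, a lid subunit, was at 116 and 100.3 CPM in the controls and 89.8 and 96.6 CPM with IFNα (log2 fold change -0.21, SE 0.13, edgeR adjusted p = 0.594). Neither passed the test.

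The assembly factors in the family were expressed at lower levels than the subunits other than Psma8 and Psmb11. All were fitted below 0, against 51.8% of all genes. Psmg1 to Psmg4 help to assemble the 20S core, and Psmd5, Psmd9 and Psmd10 help to assemble the base of the cap. Psmg4 had the most negative value of the tested members other than Psma8, with 37.2 and 26.7 CPM in the controls and 22.3 and 28.2 CPM with IFNα (log2 fold change -0.34, SE 0.21, edgeR adjusted p = 0.594). Its groups overlapped. Psmg1, Psmg2 and Psmg3 had log2 fold changes of -0.18, -0.16 and -0.15. Psmg1, Psmg2, Psmg4 and Psmd10 have 555 to 1469 bases. All genes of up to 2394 bases averaging 5 CPM or more had a median log2 fold change of -0.19. This median was -0.09 in the length group of Psmg3 (2893 bases) and 0.06 in that of Psmd5 and Psmd9 (7230 and 7248 bases). The part of gene length in these values was not tested.

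Psmd10, also known as gankyrin, was at 36.0 and 29.0 CPM in the controls and 28.6 and 25.7 CPM with IFNα (log2 fold change -0.26, SE 0.16, edgeR adjusted p = 0.592). The groups did not overlap, but the nearest samples differed by less than 0.5 CPM. Psmd5 and Psmd9 had log2 fold changes of -0.11 and -0.12.

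The alternative caps outside PA28 alpha and beta lay above 0, and the lone inhibitor at 0. Psme4, the PA200 cap, was at 74.6 and 98.7 CPM in the controls and 123 and 112 CPM with IFNα. Its log2 fold change of 0.44 (SE 0.17) was the highest of the family and had an unadjusted p of 0.044 but an adjusted p of 0.428 by edgeR's quasi-likelihood test. Psme3, the nuclear PA28 gamma cap, was at 296 and 321 CPM in the controls and 330 and 344 CPM with IFNα (log2 fold change 0.13, SE 0.13, edgeR adjusted p = 0.712). Psmf1, the inhibitor PI31, had a log2 fold change of -0.00 (SE 0.14) from 48.0 to 56.8 CPM over the 4 samples.

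Psme2b is a copy of Psme2 on another chromosome and cannot be read on its own. It was at 141 and 114 CPM in the controls and 145 and 183 CPM with IFNα (log2 fold change 0.36, SE 0.18, edgeR adjusted p = 0.519). Its transcript matched that of Psme2 at 789 of 794 aligned bases (99.4%), and 52.0% of its 100-base windows were identical in Psme2, so reads of the 2 genes may be split between them. All 837 bases of Psme2b (chr11:48945354-48946190, minus strand) also lie inside Gm12185 on the same strand. Gm12185 rose from 44.3 and 48.3 CPM in the controls to 128 and 125 CPM with IFNα (log2 fold change 1.45, SE 0.12, edgeR adjusted p = 0.00484). Whether reads of Gm12185 or Psme2 entered the Psme2b counts was not tested.

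Members known from other tissues were at or near 0. Psma8, the testis form of an alpha subunit, had 7 and 13 counts in the controls and 1 and 11 counts with IFNα, and its fitted log2 fold change of -0.67 had an SE of 0.94. Psmb11, the thymus epithelium subunit, had 1 count in IFNα replicate 1 and 0 in the other 3 samples and was not tested. Psmc3ip, which the symbol rule takes in although its product acts in recombination and is no subunit, had a log2 fold change of -0.06.

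**Figure D2:**
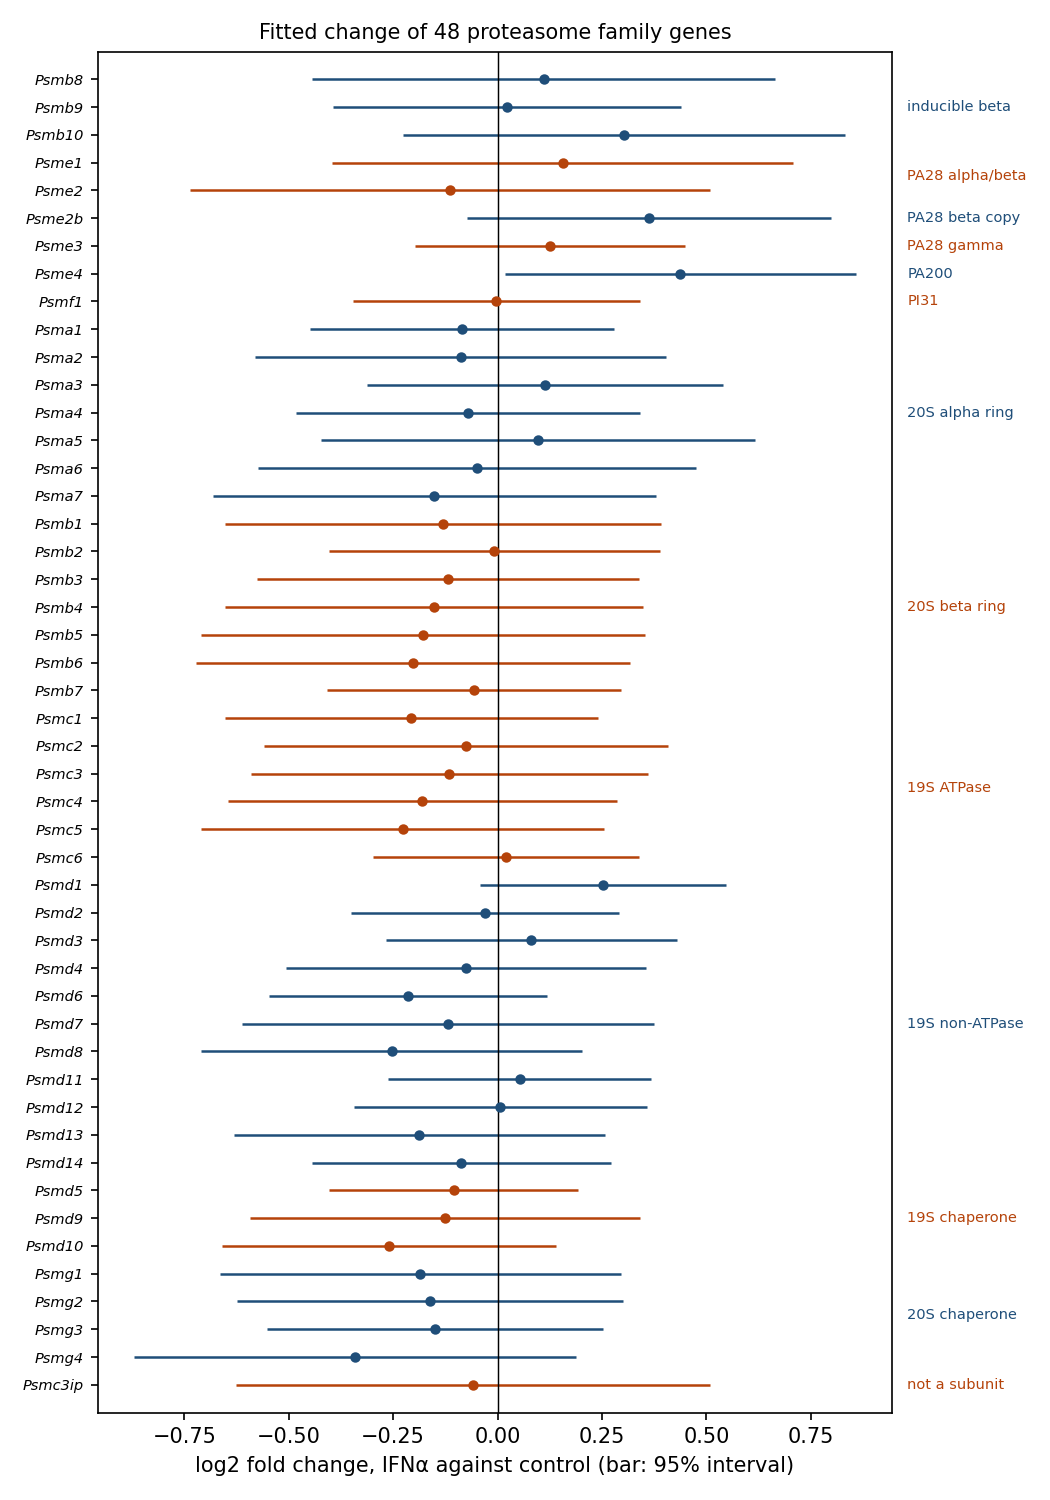
Fitted log2 fold change of IFNα against control (horizontal axis) for 48 family genes by class, in alternating colours, with bars for the 95% interval; Psma8 and Psmb11 are left out for low counts. Psme4 is the only gene whose interval, from 0.02 to 0.86, does not include 0.

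Levels per kilobase were used to compare RNA between genes, and they do not measure subunit protein. In RPKM, CPM divided by the gene length of the table in kilobases, Psme1 was the highest member in every sample, from 162 to 243 RPKM. Psmb8 was at 153 and 101 RPKM in the controls and 129 and 146 RPKM with IFNα, beside 137 and 91.0 and then 94.1 and 107 RPKM for Psmb5. Psmb10 was at 89.1 and 58.9 RPKM in the controls and 87.2 and 95.4 RPKM with IFNα, beside 26.4 to 31.3 RPKM for Psmb7 over all samples. On this scale, RNA for the inducible catalytic subunits was above that of the replaced ones in every sample, the controls included, for each of the 3 pairs.

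The ratio of an inducible subunit to its counterpart was then taken within each sample. The Psmb8 to Psmb5 ratio was 1.12 and 1.11 in the controls and 1.37 and 1.36 with IFNα, a log2 difference of 0.29 with SDs of 0.009 and 0.006 within groups (n = 2 each). Both IFNα ratios lay above both control ratios, but an SD from 2 samples is a poor measure of the spread. The exact permutation test, the one used here for single values, cannot go below p = 0.333 (two-sided) with 2 samples against 2, so it was not run, and these differences are descriptions.

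The Psmb9 to Psmb6 ratio was 1.10 and 1.25 in the controls and 1.42 and 1.30 with IFNα, a log2 difference of 0.21 with groups close to each other. The Psmb10 to Psmb7 ratio was 2.85 and 2.23 in the controls and 3.30 and 3.28 with IFNα, a log2 difference of 0.39. The IFNα samples were above both controls in each of the 3 catalytic pairs, but how often other pairs of genes do so was not counted. Psmb5 and Psmb6 (899 and 1872 bases) are shorter than Psmb8 and Psmb9 (2736 and 3659 bases), while Psmb10 (1705 bases) is shorter than Psmb7 (3421 bases). Over all genes averaging 5 CPM or more, the median log2 fold change was -0.19 up to 2394 bases and -0.09 from 2395 to 3682 bases. The part of gene length in these ratios was not tested. The ratio of Psme1 plus Psme2 to Psme3 was 4.29 and 2.51 in the controls and 3.19 and 3.18 with IFNα, so here the IFNα samples lay between the controls. With principal transcript length in place of gene length, the log2 differences of the catalytic pairs cannot change, because each length cancels. The mean levels did change, for Psmb10 to Psmb7 to 1.12 in the controls and 1.45 with IFNα. On that length the Psmb10 to Psmb7 ratio of control replicate 2 was 0.984, so the order of this pair rests on the length used.

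**Figure D3:**
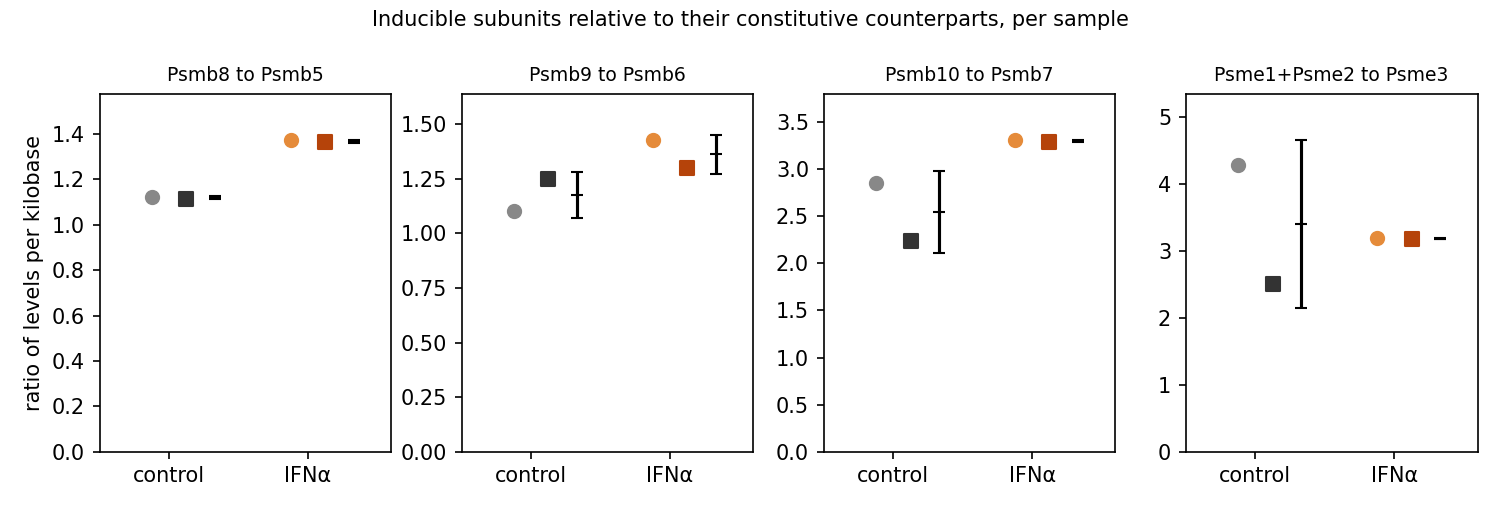
Ratio of levels per kilobase (vertical axes, linear from 0, 1 panel per pair) in each control and IFNα sample (circles replicate 1, squares replicate 2), with the mean and SD of each group (n = 2). The Psmb8 to Psmb5 ratio is 1.12 and 1.11 in the controls and 1.37 and 1.36 with IFNα, while the PA28 ratio of the controls spans 2.51 to 4.29.

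The controls differed from each other more than the groups did, and this touches every fold change above. Members were lower in control replicate 2 than in control replicate 1 in 45 of 49 cases, with log2 differences of -0.75 to -0.39 for the inducible genes. Between the IFNα replicates the members other than Psma8 differed by -0.16 to 0.34. The difference between controls was larger in size than the fold change in 43 of 49 members, and both IFNα samples lay between the controls in 35. Summed over the family, the controls were at 8217 and 6215 CPM and the IFNα samples at 6893 and 7336 CPM.

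The direction of the family therefore depended on which control was kept. Without control replicate 1, edgeR called 15 of 49 members higher (30.6%) and 0 lower, against 7.50% of all genes higher and 6.25% lower. These 15 included all 5 inducible genes, with Psmb10 at a log2 fold change of 0.64, Psme1 at 0.48, Psmb8 at 0.44, Psme2 at 0.31 and Psmb9 at 0.23. Among the other 10 were the core genes Psma2, Psma3, Psma5, Psma6 and Psmb1 and the cap genes Psmc2, Psmd1, Psmd3, Psme4 and Psme2b.

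Without control replicate 2, edgeR called 29 members lower (59.2%) and 4 higher, against 21.6% and 22.8% of all genes. The 29 included 1 inducible gene, Psme2, at a log2 fold change of -0.44, and the catalytic subunits Psmb5 at -0.44 and Psmb6 at -0.46. The 4 higher were Psmd1, Psme3, Psme4 and Psme2b. In these fits 1 control stands for its group and is assumed to vary as the IFNα samples do. Without IFNα replicate 1, 0 members were called, against 1.44% of all genes higher and 0.158% lower, and without IFNα replicate 2 also 0, against 1.42% and 0.152%. Psmd1, Psme4 and Psme2b were among the members fitted above 0 with either control alone. How many of all genes were so was not counted. Psmd1 (7265 bases) and Psme4 (8382 bases) are long genes, and all genes in their length groups, formed below, had median log2 fold changes of 0.06 and 0.17. For the length group of Psme2b (837 bases) this median was -0.19.

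The order of the inducible and constitutive genes did not turn with the control. The median of the inducible genes was above that of the constitutive members by 0.22 with all 4 samples, by 0.31 without control replicate 1 and by 0.15 without control replicate 2. This is a difference of medians, with no test.

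**Figure D4:**
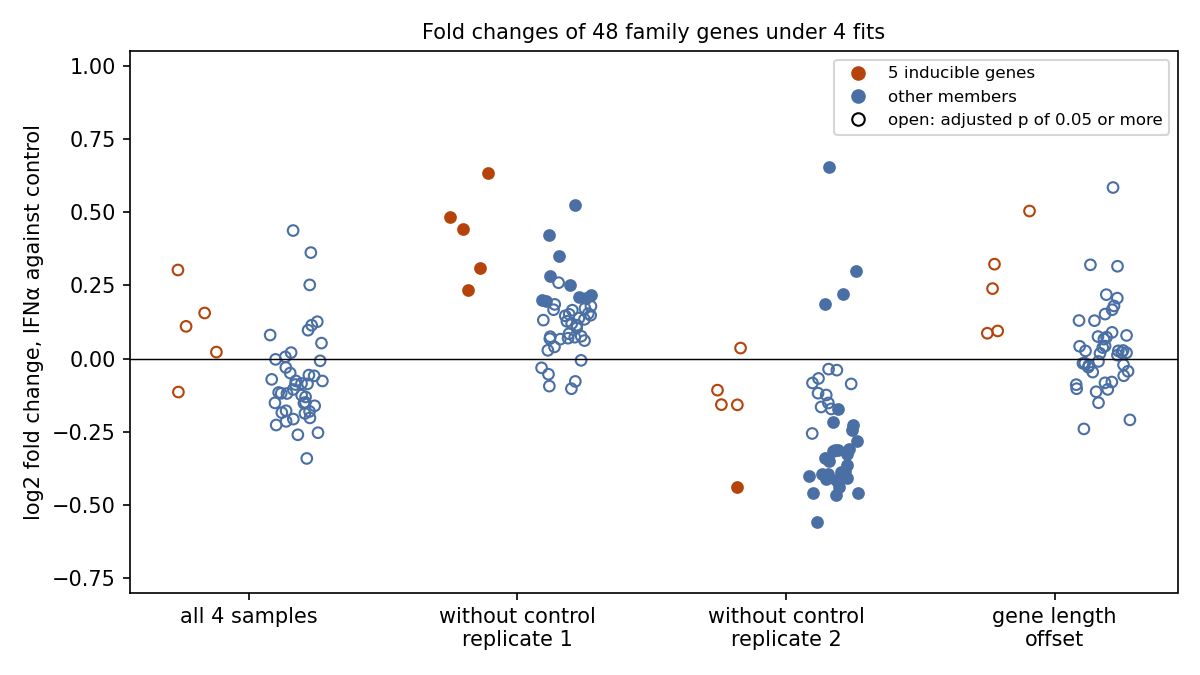
Fitted log2 fold change of IFNα against control (vertical axis) for 48 family genes with all 4 samples, without control replicate 1, without control replicate 2 and with an offset for gene length; filled points have an edgeR adjusted p under 0.05. With all 4 samples 0 genes are filled, without control replicate 1 the filled genes all lie above 0, and without control replicate 2 most lie below 0.

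Gene length moved together with the difference between controls. Genes averaging 5 CPM or more were put in 5 groups by length. The median log2 difference of control replicate 2 from control replicate 1 was -0.37 for the shortest genes (up to 2394 bases) and 0.38 for the longest (from 7515 bases). The median fold change with IFNα ran from -0.19 to 0.17 over the same groups. Of the 48 members at that level, 21 were in the shortest group and 16 in the next, and the only member in the longest was Psme4. Members in the shortest group had a median log2 fold change of -0.12 and a median difference between controls of -0.52. An offset for gene length was therefore fitted in each sample. With that offset edgeR again called 0 members, against 2.41% of all genes higher and 0.714% lower. The median was 0.24 for the inducible genes and 0.02 for the constitutive members, and 19 of 43 constitutive members were fitted below 0. With a block for replicate number and no offset, 0 members were called, against 1.90% higher and 0.395% lower. With the block besides the offset, 2 members were called higher, Psmb10 and Psme2b, against 3.15% of all genes, and 0 lower, against 1.21%.

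**Figure D5:**
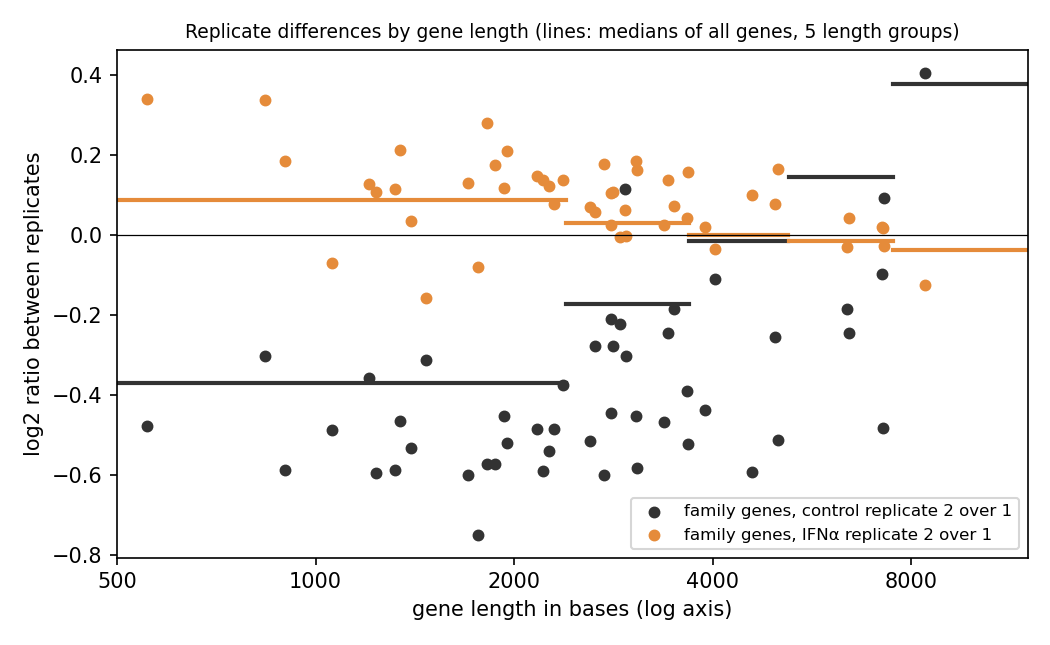
Log2 ratio of replicate 2 to replicate 1 (vertical axis) against gene length in bases (horizontal log axis) for 48 family genes, in the controls (dark) and the IFNα samples (orange), with lines for the medians of all genes in 5 length groups. For the controls these medians run from -0.37 in the shortest group to 0.38 in the longest, for the IFNα samples from 0.09 to -0.04, and the longest member, Psme4, has the highest control value, 0.40.

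Other genes of the pathway gave the following counts, from lists chosen by role. Of 19 genes for proteasome-associated proteins, 0 were called by edgeR or DESeq2, 1 had an unadjusted p under 0.05, and the median log2 fold change was 0.04. That 1 was Ecpas, a proteasome adaptor, at 0.41 (edgeR adjusted p = 0.428). Pomp, the maturation factor of the 20S core, was at -0.20 and Adrm1, a ubiquitin receptor of the cap, at -0.02. Of the 4 genes that encode ubiquitin, 0 were called by edgeR or DESeq2, 0 had an unadjusted p under 0.05 and 3 were below 0, the lowest being Rps27a at -0.50. Of 3 regulators of subunit genes, 0 were called by edgeR or DESeq2, 0 had an unadjusted p under 0.05 and 1 was below 0, Ngly1 at -0.17. Nfe2l1, the factor that raises subunit transcription when proteasomes are inhibited, was at 0.26.

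The genes of peptide loading and class I were fitted above 0 in 6 of 6 cases, with a median of 0.34, while 51.8% of all genes were fitted below 0. By edgeR's quasi-likelihood test and limma-voom 0 were called. At an unadjusted p under 0.05 by the quasi-likelihood test, 3 were higher (Tapbp, Nlrc5 and Tap1), against 5.72% of all genes. DESeq2 and edgeR's likelihood ratio and exact tests called 2 higher, Tapbp and Nlrc5, against 2.39%, 2.98% and 2.94% of all genes. Tapbp, which encodes the peptide loading chaperone tapasin, was at a log2 fold change of 0.72 (edgeR adjusted p = 0.153) and Nlrc5, a transactivator of class I genes, at 0.90 (edgeR adjusted p = 0.188). Both were fitted above 0 with either control left out, at log2 fold changes of 0.58 to 0.87 for Tapbp and 0.65 to 1.21 for Nlrc5. With the gene length offset both were called higher, against 2.41% of all genes. With either IFNα sample left out neither was called. For the inducible subunits, by contrast, the sign of 4 of the 5 depended on which control was left out, though the difference between the lists was not tested. Tap1, the peptide transporter gene whose promoter region adjoins Psmb9, was at 577 and 530 CPM in the controls and 719 and 717 CPM with IFNα (log2 fold change 0.37, edgeR adjusted p = 0.428). Psmb9 and Tap1 overlap by 212 bases on opposite strands, and whether the counting used strand is not stated.

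Among the regulators of the inducible subunits, Stat2 and Irf9 rose. Stat2, which carries the type I interferon signal, averaged 77.6 ± 5.50 CPM in control and 393 ± 14.7 CPM in IFNα samples (SD, n = 2), a log2 fold change of 2.34 (SE 0.13, edgeR adjusted p = 0.000975). Irf9, its partner in binding ISRE elements, lies within 30000 bases of Psme1 and Psme2 and went from 99.0 and 88.9 CPM in the controls to 169 and 172 CPM with IFNα (log2 fold change 0.86, SE 0.12, edgeR adjusted p = 0.037). The call of Irf9 was lost without IFNα replicate 1 (edgeR adjusted p = 0.241) or IFNα replicate 2 (0.30) and with upper-quartile scaling (0.0504). With all samples it was the only gene called among the 7 tested in the Psme1 window. Irf1, a known activator of immunoproteasome genes, was at a log2 fold change of -0.24 (edgeR adjusted p = 0.581). Around Psmb8, Psmb9 and Psmb10 no tested gene within that distance was called.

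The samples held 16096121 to 17676062 counts each, of which the family took 0.643% to 0.818%. Markers of CD8 T cells summed to 2607 to 3260 CPM in the controls and 2728 to 2848 CPM with IFNα. B cell markers summed to 17.8 to 19.7 CPM and 12.0 to 12.7 CPM, with Ebf1 at 0 in all samples, and 4 of the 6 had at most 1 count in any sample. Cd79b was at a log2 fold change of -0.87 (edgeR adjusted p = 0.156) and Cd79a at 0.05 (edgeR adjusted p = 0.961), so neither was called. Markers of macrophages and monocytes summed to 23.1 to 25.4 CPM and 12.0 to 15.2 CPM. Only 1 of these, Lyz2, was called lower (log2 fold change -1.46, edgeR adjusted p = 0.0297), against 0.222% of all genes. Cd68 and Csf1r were not called, at log2 fold changes of -0.26 and -0.02. The rest had few counts, were not tested and did not move together. Fcgr1 had 1 and 1 counts in the controls and 9 and 10 with IFNα. Itgam had 12 and 7 and then 1 and 5, and Adgre1 0 and 4 and then 6 and 3. Markers of CD4 T cells reached at most 3.76 CPM and those of dendritic cells 6.04 CPM in any sample. The NK list went from 82.8 to 84.4 CPM to 249 to 254 CPM, nearly all of it Eomes, which activated CD8 T cells also express, while Ncr1 had at most 1 count. The part of these cells in the family's values was not tested.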

How the data were processed

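Per the labels and the study's methods, the authors isolated splenic CD8+ T cells with beads, sequenced their RNA and mapped it with HISAT2. The authors deposited raw read counts per gene, made with featureCounts of Subread according to the submitters' processing notes. The counter's version and its strand setting are not stated. The notes name mm9, but the table's coordinates were those of GRCm38: 53548 of 54532 genes had the same position in GENCODE M21.

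The main test used edgeR 4.0.16 under R 4.3.3. Genes were kept by filterByExpr (minimum count 10, total 15), which left 14417, scaled by TMM, and tested with glmQLFit (robust) and glmQLFTest on 2 residual degrees of freedom. The threshold was an adjusted p (Benjamini-Hochberg) under 0.05. The fold threshold of the study's methods, a log2 fold change over 1 in size, was an alternative. Total counts were 16096121 to 17676062. Script checks used simulated data.

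The members and gene lists were chosen with earlier results of these data known. Values are given for the inducible genes, their counterparts, other caps, assembly factors, tissue-restricted members and the extremes of each class, and for other pathway genes by list, of which some are not reported here. The rule for members was the symbol pattern. Psmd1, Psmd6 and the members called with 1 control left out were named after their values were seen.

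The following alternatives were run: scaling by RLE, by upper quartile or by totals, omitting the filter or keeping genes averaging 5 CPM, the non-robust fit, the likelihood ratio and exact tests, DESeq2 1.42.0, limma 3.58.1 (voom), a replicate block, an offset for gene length fitted by lowess (span 0.3), both together, and leaving out each sample. Promoter windows were from RefSeq, build GRCm38.p6, and 42 of 50 members matched by symbol.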

Additional observations from a re-analysis of the deposited data

How the results depend on the processing

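Outside the fits that left out a sample, the fitted value of a member kept its sign and its side of the threshold in 631 of 685 cases over 14 settings, and 18 of the others came from the length offset and 18 from the offset with the block, as sign changes of uncalled members. The count of members higher was 0 in each of these settings but 1. With the gene length offset and the replicate block together it was 2, Psmb10 (log2 fold change 0.51, edgeR adjusted p = 0.030) and Psme2b (0.58, edgeR adjusted p = 0.00884), and 454 genes were higher in all (3.15%). Scaling by upper quartile or total counts moved the median of the inducible genes from 0.11 to 0.04 and 0.07.

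Leaving out each sample in turn, the count of members higher ranged from 0 to 15 and lower from 0 to 29, and the median of the inducible genes from -0.16 to 0.44. Over the same fits Psmc2 ranged from -0.31 to 0.21, Psma2 from -0.32 to 0.20, Psma6 from -0.31 to 0.28, Psmb1 from -0.40 to 0.20 and Psme2 from -0.44 to 0.31, each called lower without control replicate 2 and higher without control replicate 1. Without IFNα replicate 1 or 2, 0 members were called, against 1.44% and 1.42% of all genes higher and 0.158% and 0.152% lower. The log2 difference of the Psmb8 to Psmb5 ratio stayed between 0.28 and 0.30, that of Psmb9 to Psmb6 between 0.12 and 0.30 and that of Psmb10 to Psmb7 between 0.21 and 0.56, while the PA28 ratio ran from -0.43 to 0.34. Irf9 was no longer called without IFNα replicate 1 (edgeR adjusted p = 0.241) or replicate 2, or with upper-quartile scaling (0.0504).

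Whether the replicate numbers pair samples across the groups is not stated. The correlation of replicate 1 minus replicate 2 between the groups was -0.31 over 10105 genes. This cannot decide on pairing, because the controls differed from each other along gene length. With the replicate block 0 members were called, 274 genes were higher (1.90%) and 57 lower (0.395%) in all, and the median was 0.14 for the inducible genes and -0.09 for the constitutive members. The crossed pairing, added after seeing the data, also called 0 members, with 743 genes higher (5.15%) and 340 lower (2.36%).

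Over all genes, edgeR's likelihood ratio test called 430 higher and 233 lower, its exact test 424 and 224, DESeq2 345 and 87 and limma-voom 213 and 32, against 206 and 32. With the gene length offset 348 were higher and 103 lower. With 2 samples in a group and controls that differed, intervals of the inducible genes were wide, and low counts, at most 13 in a sample, limit Psma8 and Psmb11.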
